A study of Mus musculus with 5 samples.

Results

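The cells described here were brain T cells whose wells held transcripts of Cxcr6 and none of the CD4 or CD8 lineage genes. They were chosen by measured values: among kept wells (a metadata count of 1 cell, at least 400 UMIs outside the ERCC spike-in rows, at most 30% of these from mitochondrial rows), those with at least 1 UMI of Cxcr6 and 0 UMIs of Cd4, Cd40lg, Izumo1r, Cd8a and Cd8b1. A UMI, or unique molecular identifier, stands for 1 captured RNA molecule. The rule found 167 wells of 1482 kept wells, out of 433 kept wells with Cxcr6. They are called lineage-negative Cxcr6 wells below. The closest comparison is with the 229 Cxcr6 wells that held a Cd8a or Cd8b1 UMI (CD8 Cxcr6 wells). The 37 Cxcr6 wells with a Cd4, Cd40lg or Izumo1r UMI and no Cd8a or Cd8b1 UMI (CD4 Cxcr6 wells) and the 515 lineage-negative wells without Cxcr6 are used where they show a difference.

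All 5 mice carried the Grl1loxP/loxP genotype and had electrical foot-shock stress, and their brains, without the choroid plexus, were taken 14 days later. Into the cerebral ventricles, 3 mice (207, 208 and 215, aged 18, 18 and 19 weeks) received TAT-CRE recombinase, a cell-permeable Cre protein, and 2 mice (216 and 218, aged 19 and 16 weeks) received PBS. The series names the glucocorticoid receptor of the choroid plexus as what the recombinase was meant to lower, and the protein itself carries no promoter that limits it to a cell type. T cells were sorted as CD45+CD11b-TCRβ+ into 1 plate of 384 wells per mouse, and each well was counted by single-cell RNA sequencing of 3' ends. The mouse was the replicate throughout.

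Cxcr6 encodes a chemokine receptor whose ligand, Cxcl16, is made by myeloid and barrier cells, and it is widely used as a mark of T cells that stay in a tissue instead of recirculating. Such cells, mostly CD8 T cells in the brain, tend to carry Rgs1 and Rgs2, regulators that dampen G protein-coupled receptor signals, and integrins such as that built on Itga4 (alpha 4). Lineage in T cells is read from the coreceptors: Cd8a and Cd8b1 encode the chains of CD8, Cd4 encodes CD4, Cd40lg the helper ligand CD40L, and Izumo1r a folate receptor of regulatory and helper cells. In shallow single-cell data a coreceptor transcript can be missed, so a well without a lineage UMI is not thereby a cell without a coreceptor.

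The members held 329593 UMIs in all, with a median of 1524 UMIs per well (409 to 8584). CD8 Cxcr6 wells were deeper, with a median of 2350. Mouse 208 stood apart: its kept wells had a median of 993 UMIs against 1410 to 2660 in the other 4 mice, and ribosomal RNA rows took 28.3% of its UMIs against 43.9 to 48.0%. Its CD8 Cxcr6 class held 14 wells, against 35 to 79 in the other 4 mice. Some of the results that rest on mouse 208 are given with and without it. All 384 cell barcodes occurred in all 5 libraries, because they are plate positions, and the 5 pool barcodes kept the libraries apart. Of the 20 empty wells, which held 17 to 160 UMIs each, 2 had a Cxcr6 UMI, 3 had a Cd8a or Cd8b1 UMI, and 3 had a Ccl5 UMI. All levels below are CPM, the UMIs of a gene summed over the wells of a class in a mouse and scaled to 1000000 UMIs outside the ribosomal RNA rows, and all intervals cover counting error only.

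The rule itself left a wide margin of uncertain wells. Among the members, 57 had exactly 1 Cxcr6 UMI, 25 had 2, and the highest had 14. Just outside the rule lay 56 Cxcr6 wells with exactly 1 lineage UMI, of which 39 were CD8 and 17 were CD4 Cxcr6 wells. A further 12 wells met the gene rule below the UMI minimum, with at most 377 UMIs, and 22 met it above the mitochondrial limit. The Cxcr6 level, which the rule used, was 3091, 3976 and 3381 CPM in members of TAT-CRE mice 207, 208 and 215 and 3267 and 2516 in members of PBS mice 216 and 218.

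Membership moved with depth when wells were pooled over mice. Of Cxcr6 wells with 400 to under 800 UMIs, 33 of 50 had no lineage UMI (66.0%, Clopper-Pearson 95% interval 51.2 to 78.8%). The share was 51.9% at 800 to under 1600 UMIs, 28.4% at 1600 to under 3200 and 28.3% at 3200 or more, where 30 of 106 wells had none (19.98 to 37.9%). The share was lower with each step over the 3 shallower ranges and near level over the 2 deepest. CD8 Cxcr6 wells of that deepest range had a median of 7 Cd8a and Cd8b1 UMIs, and 8 of those 67 wells had exactly 1. When every CD8 Cxcr6 well was thinned to 400 UMIs, 55.4% ± 5.5 (SD, n = 5 mice) kept a lineage UMI. CD4 Cxcr6 wells kept one in 36.0% ± 10.3 (SD, n = 4 mice with 3 or more such wells). These values are a description of the rule, with no test.

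**Figure D1:**
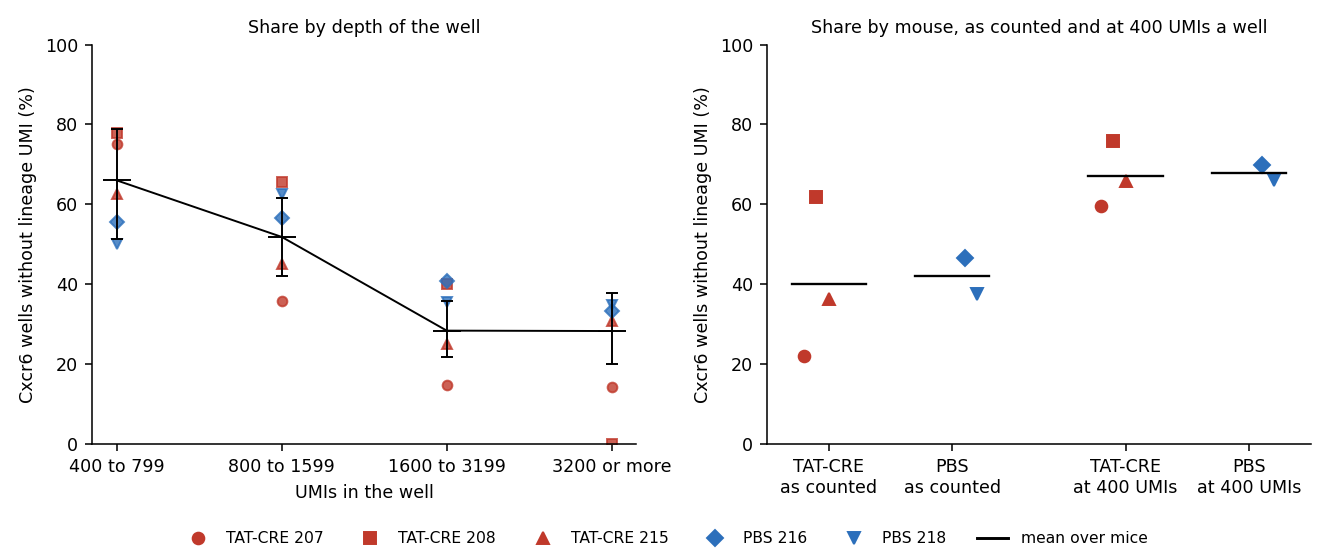
Left: share of Cxcr6 wells without a lineage UMI (%) against the well's UMIs, with points for mice and black marks for the pooled share with its Clopper-Pearson 95% interval. Right: the same share per mouse as counted and at 400 UMIs a well, with lines for group means; the spread between mice narrows from 21.9 to 61.9% as counted to 59.7 to 75.8% at 400 UMIs.

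Lineage-negative wells made up 21.9%, 61.9% and 36.2% of the Cxcr6 wells of TAT-CRE mice 207, 208 and 215, and 46.5% and 37.6% of those of PBS mice 216 and 218. Mouse 208, the shallowest, was highest and mouse 207 lowest, and both were TAT-CRE mice. With every well at 400 UMIs the shares were 59.7%, 75.8% and 65.8% against 69.9% and 66.1%. The TAT-CRE mean was then 67.1% ± 8.1 (SD, n = 3) and the PBS mean 68.0% ± 2.7 (SD, n = 2), a difference of -0.86 percentage points. This difference was smaller than the spread between mice (exact two-sided permutation p = 0.8, adjusted p = 0.8 over 3 tests), and its sign turned, to 2.84 points without mouse 207 and 1.05 without mouse 216. As a share of all kept wells at 400 UMIs the members averaged 9.69% ± 1.47 over the TAT-CRE mice (SD, n = 3), and 10.8% ± 0.42 over the PBS mice (SD, n = 2) (exact permutation p = 0.5, adjusted p = 0.75). With 3 against 2 mice the smallest p possible is 0.1.

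The cells were T cells by their transcripts. Of the 167 wells, 146 (87.4%) held a UMI of a T cell receptor or CD3 chain, and all 30 of the members with 3200 or more UMIs did. The summed level of 15 T cell receptor, CD3 and other T cell genes was 10936 ± 1068 CPM (SD, n = 5) in the members and 10769 in CD8 Cxcr6 wells. Cd3g, a CD3 chain, was 641 to 863 CPM over the 5 mice in members, and Cd3e 301 to 942. Trbc1 (chromosome 6, 41538218 to 41539881, mm10) and Trbc2 (chromosome 6, 41546730 to 41548352) encode the alternative constant regions of the T cell receptor beta chain. Each cell uses 1 of them, and they are near copies. Over 518 coding bases of their GENCODE M21 transcripts, compared without gaps from the shared first base of the constant region, 23 bases differed (95.6% identical), and 22 of these lay in the last 158 coding bases. That stretch is printed because it, with the unlike sequence after the stop codon, is what lets a read from the 3' end be given to either gene. Capitals mark the bases that differ.
Trbc1: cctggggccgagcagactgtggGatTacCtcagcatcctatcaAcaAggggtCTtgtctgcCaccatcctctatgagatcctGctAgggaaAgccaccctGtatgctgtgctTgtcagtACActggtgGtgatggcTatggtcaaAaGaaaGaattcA
Trbc2: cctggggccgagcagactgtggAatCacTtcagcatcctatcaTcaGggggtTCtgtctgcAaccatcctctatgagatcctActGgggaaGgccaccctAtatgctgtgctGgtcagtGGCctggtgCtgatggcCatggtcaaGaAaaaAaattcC

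Trbc1 stood at 1998, 1336 and 1014 CPM in members of mice 207, 208 and 215 and at 1203 and 395 in mice 216 and 218. In CD8 Cxcr6 wells it stood at 259, 1007, 1611, 1196 and 551 in the same order. Members were higher in 3 of 5 mice and the ranges overlapped (log2 difference 0.29 ± 0.31 SE, edgeR quasi-likelihood test, adjusted p = 0.999). It turned to -0.25 without mouse 207. Trbc2 stood at 1847, 1036, 1352, 1351 and 2955 in members and at 1986, 2519, 1880, 2493 and 2520 in CD8 Cxcr6 wells, lower in members of 4 of 5 mice (log2 difference -0.58 ± 0.23 SE, adjusted p = 0.999). Neither chain passed the test. How reads of the shared stretch were assigned between the copies is not given in the sources used here, so the level of each chain is uncertain.

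The residency genes were at levels near those of CD8 Cxcr6 wells. Rgs1 was found in 30 of 167 members, with 716, 234, 376, 884 and 775 CPM in mice 207, 208, 215, 216 and 218. CD8 Cxcr6 wells had 843, 882, 492, 927 and 119, so mouse 218 alone was higher in members (log2 difference -0.08 ± 0.41 SE, adjusted p = 0.999), and the sign changed under 6 of 17 alternatives. Both PBS mice had more Rgs1 in members than any TAT-CRE mouse, with no call in that contrast. Of the 125 Rgs1 UMIs in members, 20 came from 1 well of mouse 218. The lead of mouse 218 over TAT-CRE mouse 207, 775 against 716 CPM, rested on that well. Rgs2 was found in 28 members, at 377, 601, 413, 589 and 307 CPM against 209, 756, 246, 337 and 170 in CD8 Cxcr6 wells. It was higher in members of 4 of 5 mice without passing the test (log2 difference 0.49 ± 0.49 SE, adjusted p = 0.999). Itga4 was found in 36 members and ranged from 167 in mouse 208 to 1696 in mouse 207. Its level in CD8 Cxcr6 wells ran from 441 to 1318 (log2 difference -0.14 ± 0.36 SE, adjusted p = 0.999), with a change of sign under 4 of 17 alternatives. At 400 UMIs a well, 8.88% of members had Rgs1 against 13.3% of CD8 Cxcr6 wells, 8.23% had Rgs2 against 6.03%, and 12.3% had Itga4 against 12.03%.

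**Figure D2:**
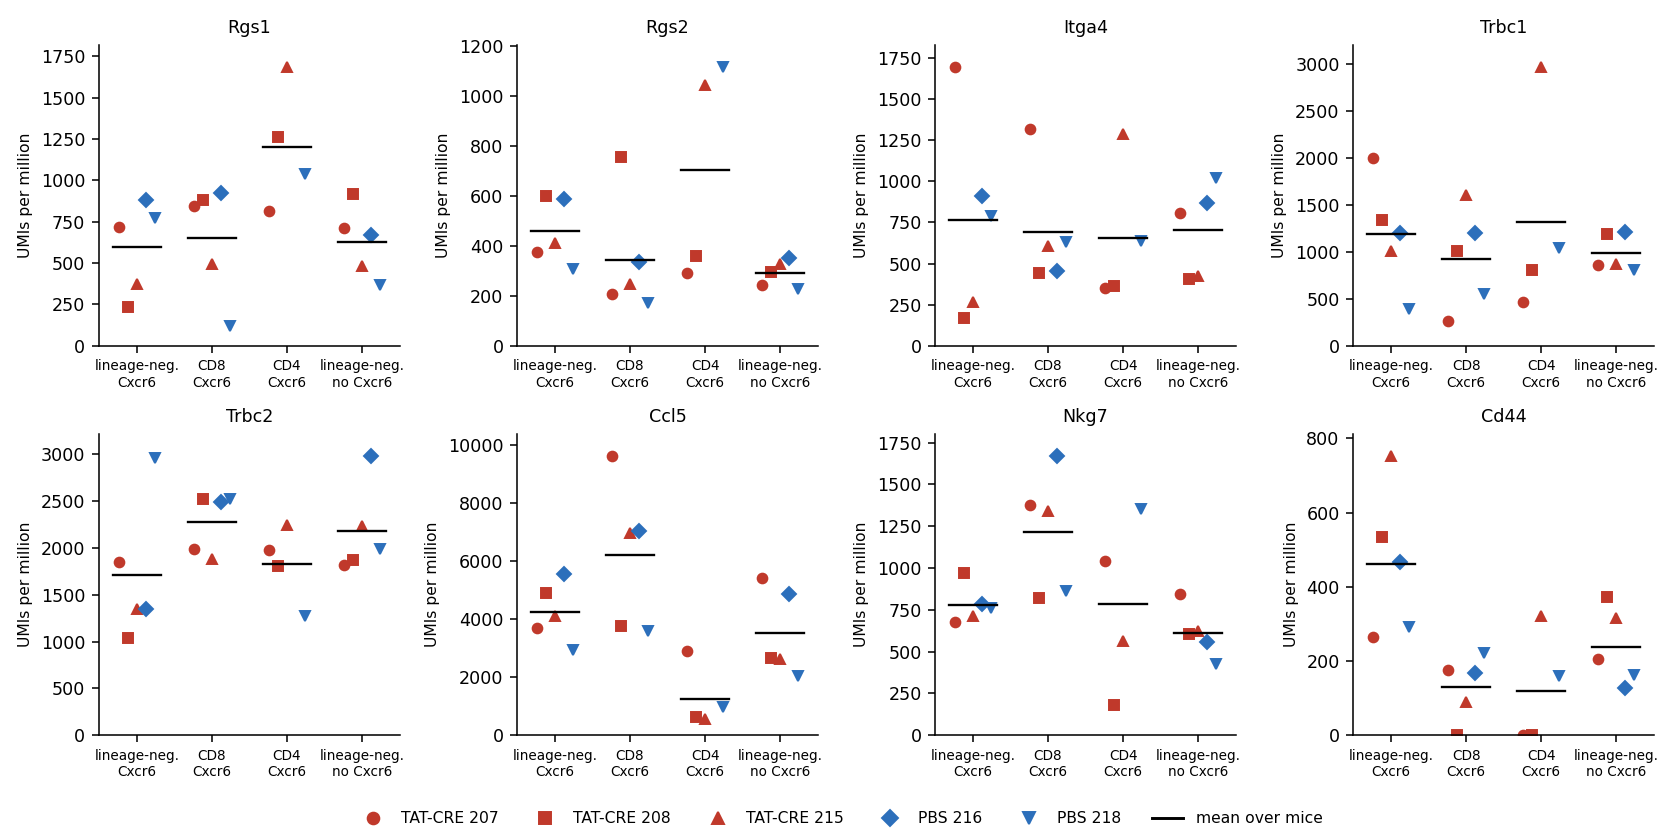
Levels of 8 genes in CPM outside ribosomal RNA rows (vertical axes) in the 4 classes of wells. Each point is the sum over a class in 1 mouse and lines are means over mice with at least 3 wells of the class; Ccl5 in members lies above CD4 Cxcr6 wells of the same mouse in 4 of 4 mice, while the other panels overlap between members and CD8 Cxcr6 wells, apart from Cd44.

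Over the residency list without Cxcr6, 12 of its 19 genes had enough UMIs for the comparison with CD8 Cxcr6 wells. Of these, 6 were higher and 6 lower in members and none was called, with a median log2 difference of 0.01 against -0.26 for all genes. The summed level was 2903 ± 244 CPM (SD, n = 5) in members, 2757 in CD8 Cxcr6 wells and 2287 in lineage-negative wells without Cxcr6. Members exceeded the last class in 5 of 5 mice, in mouse 208 by less than 1 CPM, and also as a share of wells at 400 UMIs (37.6% against 28.4%). Itga1, the alpha 1 chain of a collagen-binding integrin found on resident T cells, was at 264, 100, 300, 295 and 249 CPM in members and 37, 148, 53, 88 and 51 in lineage-negative wells without Cxcr6, above them in 4 of 5 mice. It did not pass the test (log2 difference 1.496 ± 0.79 SE, adjusted p = 0.888).

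The comparison with CD8 Cxcr6 wells asks whether wells without a lineage UMI differ in other genes. Fitted over 4967 genes with edgeR's quasi-likelihood test and the mouse as a block, it called 1 gene at an adjusted p below 0.05, which is 0.0201% of the genes tested. That gene was Gm42418, a row of ribosomal RNA sequence (log2 difference -0.32 ± 0.07 SE, adjusted p = 0.0174), and it was not called with library size alone as the scale. At an unadjusted p below 0.05 there were 161 genes (3.24%), and DESeq2 called 0. The median log2 difference of all genes was -0.26, and -0.10 with library size alone. Differences are read against that median.

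Of the genes nearest to a call, those lower in members were led by Hsp90ab1, a cytosolic chaperone, at 3920, 2105, 1841, 2702 and 3174 CPM in mice 207, 208, 215, 216 and 218. CD8 Cxcr6 wells had 3646, 5352, 3535, 3285 and 5141, higher in every mouse except 207 (log2 difference -0.72 ± 0.19 SE, adjusted p = 0.263). Rnf125, a ubiquitin ligase, had 7 UMIs in 4 members and 103 UMIs in 20 CD8 Cxcr6 wells. Sp100, an interferon-inducible nuclear body protein, and Eif3c, a translation initiation factor subunit, followed Ccl5 in this order. On the higher side stood Tmem64, Nabp1, Eif1ax, Cebpb and Stk39, none of which passed the test (smallest adjusted p = 0.999). Tmem64 rested on 42 UMIs in 10 members, 15 of them in 1 well. Cd44, which encodes the hyaluronan receptor of antigen-experienced T cells, was singled out after its values were seen: it was at 264, 535, 751, 467 and 293 in members and 175, 0, 90, 168 and 221 in CD8 Cxcr6 wells. Members were higher in 5 of 5 mice, and 7.12% of them against 2.64% had a Cd44 UMI at 400 UMIs a well. The test did not call it (log2 difference 1.52 ± 0.61 SE, adjusted p = 0.999). Leaving out single mice gave log2 differences of 1.12 to 2.00. The 0 for Cd44 in CD8 Cxcr6 wells of mouse 208 came from 14 wells.

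Ccl5, which encodes a chemokine stored and secreted by memory CD8 T cells and NK cells, had a mean in members between those of the CD8 and CD4 classes. It lies on chromosome 11 (83525778 to 83530518, mm10) and was found in 108 of 167 members. Its level was 3694, 4911 and 4094 CPM in members of TAT-CRE mice 207, 208 and 215 and 5551 and 2925 in members of PBS mice 216 and 218. CD8 Cxcr6 wells had 9604, 3778, 6959, 7041 and 3588, higher in every mouse except 208. The log2 difference was -0.59 ± 0.17 SE, with an adjusted p of 0.593 in edgeR's test. Without mouse 208 it was -0.86 and called (adjusted p = 0.00189), and over the 17 alternatives the adjusted p ranged from 0.00189 to 1. At 400 UMIs a well 46.0% ± 7.4 of members and 56.7% ± 14.9 of CD8 Cxcr6 wells had a Ccl5 UMI (SD, n = 5).

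Against CD4 Cxcr6 wells, Ccl5 was the gene that passed the test. The 4 mice with at least 3 CD4 Cxcr6 wells entered the fit, which left out mouse 216 with 2. CD4 Cxcr6 wells had 2902, 631, 562 and 957 CPM in mice 207, 208, 215 and 218, below the members of the same mouse in 4 of 4. Ccl5 was higher in members by a log2 difference of 2.07 ± 0.31 SE (edgeR, adjusted p = 7.72e-08), where the median of all genes was 0.55. It was the 1 gene called of 2134 tested (0.0469%). At 400 UMIs a well, 46.0% of members over 5 mice and 21.8% ± 9.9 of CD4 Cxcr6 wells (SD, n = 4) had it. The CD4 class held 35 wells in these mice. The adjusted p was 0.284 without mouse 218, 0.139 with every well thinned to 400 UMIs and 0.0981 without the mouse block, and the direction held under all 16 alternatives.

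Among the genes next in order for that comparison were B2m, the light chain of MHC class I, Hipk1 and Ybx1 on the higher side. B2m was 9046, 8453, 7099 and 7621 CPM in members and 5920, 2975, 5141 and 6700 in CD4 Cxcr6 wells of mice 207, 208, 215 and 218, with a log2 difference of 0.93 ± 0.24 SE (adjusted p = 0.0918). It was called with members and comparison wells held to 2 or more Cxcr6 UMIs (adjusted p = 0.016) and without the ribosomal RNA rows (adjusted p = 0.0246). Zfp51, Bclaf1, Fnbp1, Sept7 and Rgs10 stood on the lower side and did not pass. Zfp51 had 31 UMIs in 3 CD4 Cxcr6 wells and 1 in the members, from mouse 216.

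The cytotoxic genes as a group lay lower in members than in CD8 Cxcr6 wells, and higher than in CD4 Cxcr6 wells. Of 24 genes on the list of the CD8 and cytotoxic programme, without the coreceptors, 20 were tested against CD8 Cxcr6 wells: 18 were lower and 2 higher in members, where 62.0% of all genes were lower. None was called, and 4 of the 18 had an unadjusted p below 0.05. Their median log2 difference was -0.85 against -0.26 for all genes, and it stayed below that of all genes under 13 of 13 settings compared. The gap was smallest with wells thinned to 400 UMIs, where the median was -0.195 against -0.06 for all genes. Much of the gap was thus absent at equal depth. The summed level was 7388, 9756 and 9203 in members of mice 207, 208 and 215 and 10733 and 7474 in mice 216 and 218. In CD8 Cxcr6 wells it was 18141, 11208, 12866, 12230 and 10189, higher in 5 of 5 mice. As a share of wells at 400 UMIs the list was at 63.3, 65.96, 67.5, 80.5 and 60.8% in members and 91.5, 66.2, 84.1, 78.6 and 76.5% in CD8 Cxcr6 wells, so mouse 216 had the opposite order and mouse 208 was level. Nkg7, a granule membrane protein of killer cells, was 678 to 969 in members and 819 to 1668 in CD8 Cxcr6 wells, with a log2 difference of -0.71 ± 0.30 SE (adjusted p = 0.999). Gzmk, a granzyme of memory CD8 cells, was 192 ± 135 against 438 ± 330 (SD, n = 5). Against CD4 Cxcr6 wells, 12 of 14 tested genes of the list were higher and 1, Ccl5, was called, with a median of 1.70 against 0.55 for all genes, of which 28.4% were lower. In that direction mouse 207 was the exception in the summed level (7388 against 7545).

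Genes of the CD4 and helper programme stood higher in members than in CD8 Cxcr6 wells, and lower than in lineage-negative wells without Cxcr6, with none called. Without Cd4, Cd40lg and Izumo1r, 11 of 24 listed genes were tested against CD8 Cxcr6 wells, of which 8 were higher, 3 lower and none called (median 0.28 against -0.26). Over 12 settings that median ran from -0.11 to 0.51 and lay above the median of all genes in each. Thinning to 400 UMIs was not among these settings, since no gene of the list then had enough UMIs to be tested. Their summed level was 2111, 1336, 1540, 1621 and 1638 CPM in members of mice 207, 208, 215, 216 and 218 and 985, 504, 1052, 893 and 1383 in CD8 Cxcr6 wells. Members were higher in 5 of 5 mice, and the list's share of wells at 400 UMIs was higher in 4 of 5. In members of mouse 218, 1 well gave 25 of the list's 112 UMIs. Without that well they stood at 1324 CPM, below the 1383 of CD8 Cxcr6 wells of that mouse. Maf, a transcription factor of helper and regulatory cells, gave 24 UMIs in 6 members of 3 mice and 2 UMIs in 2 CD8 Cxcr6 wells. It did not pass the test (unadjusted p = 0.0352, adjusted p = 0.999). CD4 Cxcr6 wells had a summed level of 2258 ± 790 (SD, n = 4), above the members on average and in 2 of 4 mice. Against lineage-negative wells without Cxcr6, 15 of 16 tested genes of the list were lower in members (median -0.72 against -0.48 for all genes), and the summed level was 1649 against 2439, lower in 3 of 5 mice. Transcripts of both programmes occurred in the same wells: 88 members had UMIs of the CD8 programme only, 9 of the CD4 programme only, 59 of both (35.3%) and 11 of neither. CD8 Cxcr6 wells had both in 99 of 229 (43.2%), and at 3200 UMIs or more both occurred in 18 of 30 members and 40 of 67 CD8 Cxcr6 wells (59.7%).

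**Figure D3:**
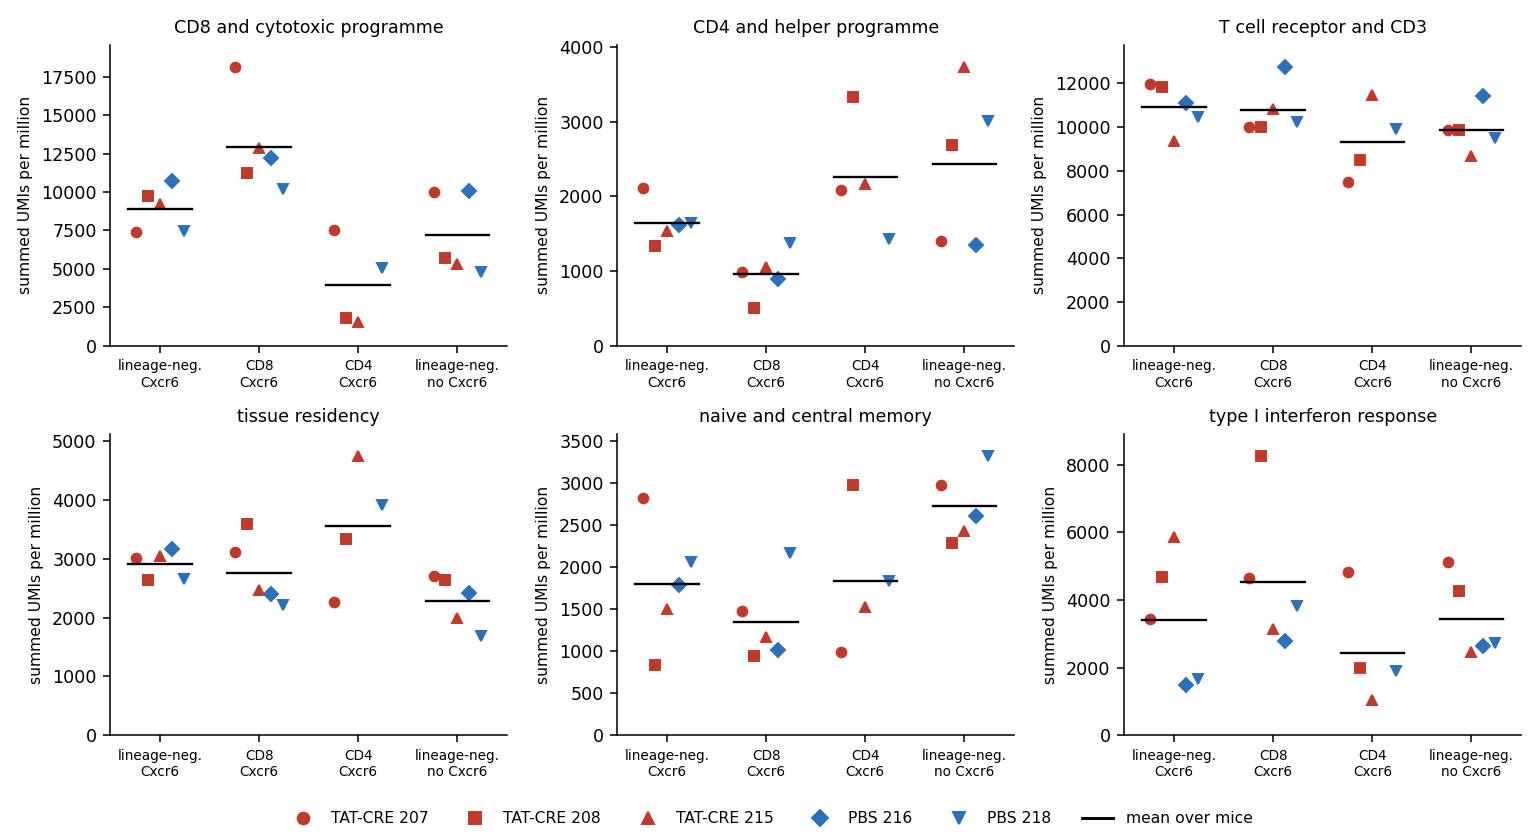
Summed levels of 6 gene lists in CPM outside ribosomal RNA rows (vertical axes) for the 4 classes of wells, with a point per mouse and lines for means. The CD8 and cytotoxic programme was lower in members than in CD8 Cxcr6 wells in 5 of 5 mice and the CD4 and helper programme higher in 5 of 5, while the T cell receptor and residency lists overlapped. The order of the CD4 and helper programme in mouse 218 rested on 1 well.

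Genes of other lymphocytes were also counted, although the TCRβ+ gate should remove gamma delta T cells and NK cells. A gamma delta receptor chain gave a UMI in 18 of 167 members (10.8%, 6.5 to 16.5%), against 45 of the deeper 229 CD8 Cxcr6 wells (19.7%, 14.7 to 25.4%). These counts pool wells over mice, and their order differed between depths. Under 1600 UMIs it was 4 of 89 members (4.49%, 1.24 to 11.1%) against 14 of 61 CD8 Cxcr6 wells (22.95%, 13.2 to 35.5%). At 3200 UMIs or more it was 7 of 30 (23.3%, 9.93 to 42.3%) against 11 of 67 (16.4%, 8.49 to 27.5%), with overlapping intervals. A dependence on depth was not tested. Tcrg-C2, which alpha beta T cells also transcribe, led with 33 UMIs, and Trdc, the delta chain, had 2 UMIs in 1 well. Il17a or Il17f, the type 17 cytokines, were found in 6 members (3.59%, 1.33 to 7.66%) and 3 CD8 Cxcr6 wells (1.31%). Foxp3, the regulatory T cell factor, was found in 1 member. NK and innate receptors summed to 1223 ± 563 CPM in members (SD, n = 5) and 717 in CD8 Cxcr6 wells, higher in 5 of 5 mice, with 4 of 4 tested genes higher and none called. Of the 14 measured genes of the list, 10 had a UMI in members. Il2rb, which memory T cells share, gave 133 of the list's 249 UMIs. Klre1 gave 52 in 8 wells of 2 mice, and Fcer1g 17 in 5 wells of 3 mice. Ncr1 and Tyrobp, defining genes of NK cells, had no UMI in the members, nor had Fcgr3 and Klri2. One well of mouse 218 held 28 of the 249 UMIs, and members of that mouse stood at 1287 CPM with it and 912 without it.

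Markers of other brain and blood cells were counted in the same way. No UMI of the measured neutrophil, astrocyte, neuron or erythroid genes was found in the members. The defining microglial genes C1qa, C1qc and Cx3cr1 were at 0. The monocyte list reached 1393 ± 243 CPM in members (SD, n = 5), all of it from Ly6c2, which is also on the cytotoxic list, and Ccr2, both of which T cells express, with Itgam and Apoe at 0. The oligodendrocyte list was 234 to 641 in members and 0 to 475 in CD8 Cxcr6 wells, from Mbp and Cnp in 26 of 167 members (15.6%), with Mobp at 0. The endothelial list had a UMI in 55 members (32.9%, mean 874 CPM) and 83 CD8 Cxcr6 wells (36.2%, mean 616 CPM), and Ly6a and Ly6c1, which T cells also express, gave 108 and 41 of its 165 UMIs in members. The B cell list had a UMI in 13 members, with 34 of its 36 UMIs from Ighm, while Cd74, Ighd, Igkc and Ms4a1 were at 0. Their part in the results was not tested.

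At equal depth the members were about as complex as CD8 Cxcr6 wells. Members gave 173, 173 and 166 genes per well at 400 UMIs in mice 207, 208 and 215 and 165 and 169 in mice 216 and 218. CD8 Cxcr6 wells gave 174, 181, 162, 170 and 175, higher in every mouse except 215. The mean difference of -3.35 genes did not pass an exact two-sided sign-flip permutation test over mice (p = 0.188, adjusted p = 0.563), a test that cannot pass 0.05 with 5 mice. As counted, without equal depth, the median was 376 genes in members and 513 in CD8 Cxcr6 wells.

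Compared with the lineage-negative wells without Cxcr6, genes of recirculating T cells stood lower in members, with no gene called. Of 9 tested genes of the naive and central memory list, 9 were lower in members and none was called, with a median log2 difference of -0.91 against -0.48 for all genes. Among all genes, 72.3% were lower. The summed level was 2827, 835, 1502, 1793 and 2062 CPM in members against 2980, 2283, 2431, 2611 and 3317, lower in 5 of 5 mice, and in 4 of 5 as a share of wells at 400 UMIs. Lef1, a transcription factor of naive T cells, was 139 ± 178 in members and 327 ± 113 without Cxcr6 (SD, n = 5), and S1pr1, the receptor that guides exit from tissue, 109 ± 131 against 259 ± 96. Each was lower in 4 of 5 mice, mouse 207 being the exception for Lef1 and mouse 215 for S1pr1. The counts were small: members held 22 Lef1 UMIs in 8 wells, 7 of them in 1 well of mouse 207. They held 17 S1pr1 UMIs in 7 wells, 7 of them in 1 well of mouse 215.

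Of 5450 genes tested in that comparison, 3 were called (0.055%), all lower in members: Gm42418, Gm26917 and mt-Rnr2. These are ribosomal RNA rows whose log2 differences of -0.45, -0.43 and -0.39 were close to the median of all genes, and 0 genes were called with library size alone. At an unadjusted p below 0.05 there were 321 genes, and DESeq2 called 0. Outside these rows the lowest p belonged to Rps20 and Rpl34, ribosomal proteins, and to Tnfaip3, a brake on NF-kappaB signalling, all lower in members. Rps20 was 2194 ± 167 against 2981 ± 423 CPM (SD, n = 5; adjusted p = 0.141 in edgeR). Usp8 and Upf3b had no UMI in the 167 members and 69 and 64 UMIs in the 515 wells without Cxcr6, and neither passed. Nabp1, Mtf2, Acadl, Eml3 and Dnajc1 led the higher side with adjusted p of 0.676 to 0.687.

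Between TAT-CRE and PBS mice, no gene was called among 1973 tested in the members (0.0%). At an unadjusted p below 0.05 there were 65 genes, and DESeq2 called 0. Genes with the smallest p on the higher side in TAT-CRE mice were Slfn5, Rfx7, Rps6ka3, Ablim1 and Tnrc6c, and on the lower side Phf3, Zmynd11, Egr1, Ndfip1 and Slc38a1 (adjusted p = 0.997 for each). Slfn5, an interferon-inducible member of the Schlafen family, stood at 188, 535 and 789 CPM in TAT-CRE mice 207, 208 and 215 and at 0 and 43.9 in PBS mice 216 and 218. Its 45 UMIs came from 9 wells. Ablim1, an actin-binding protein, stood at 452, 902 and 526 against 73.7 and 205. Egr1, an immediate early gene, rested on 48 UMIs, of which 37 came from 1 well of mouse 216. Nr3c1, which encodes the glucocorticoid receptor, was at 415, 66.8 and 338 in members of TAT-CRE mice and 319 and 453 in members of PBS mice. T cells were not the stated target of the recombinase, so this is no check of the labels.

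Genes of the type I interferon response stood higher in members of TAT-CRE mice, with no gene called. Of 25 listed genes 11 were tested, of which 10 were higher and 1 lower in TAT-CRE mice and none was called. Among all genes tested, 54.5% were lower. The list's median log2 difference was 1.15 against -0.09 for all genes. The summed level was 3430, 4678 and 5860 CPM in mice 207, 208 and 215 and 1474 and 1668 in mice 216 and 218. Each TAT-CRE mouse thus stood above both PBS mice, an order that was not tested. With 3 against 2 mice the smallest exact permutation p is 0.1. The share of all genes with this order was not counted. A single well of mouse 215 gave 89 of the list's 156 UMIs in that mouse, whose level was 2740 without it, still above both PBS mice. At 400 UMIs a well 40.0% ± 4.7 of members of TAT-CRE mice (SD, n = 3) and 24.8% ± 3.1 of members of PBS mice (SD, n = 2) had a UMI of the list. Ifi27l2a, an interferon-inducible mitochondrial protein, was 1018, 368 and 338 against 172 and 58.5. In CD8 Cxcr6 wells the list stood at 4656, 8249 and 3155 in TAT-CRE mice and 2780 and 3809 in PBS mice, and there the groups overlapped.

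The early response list, transcription factors and phosphatases switched on within minutes of stimulation or handling, showed the same order of groups in the members. It stood at 6332, 7083 and 5108 CPM in TAT-CRE mice and at 4274 and 3408 in PBS mice. Of 14 tested genes 12 were higher and 2 lower in TAT-CRE mice, none called, where 54.5% of all genes were lower. The list's median was 0.68 against -0.09 for all genes, and its order of groups was not tested either. Klf6 was 867, 1537 and 413 against 246 and 336, and Dusp2, a phosphatase that turns off MAP kinases, 678, 1303 and 789 against 565 and 351. The CD8 and cytotoxic programme averaged 8782 ± 1239 over the TAT-CRE mice (SD, n = 3) and 9104 ± 2304 over the PBS mice (SD, n = 2), and the residency list 2899 ± 225 and 2908 ± 368.

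**Figure D4:**
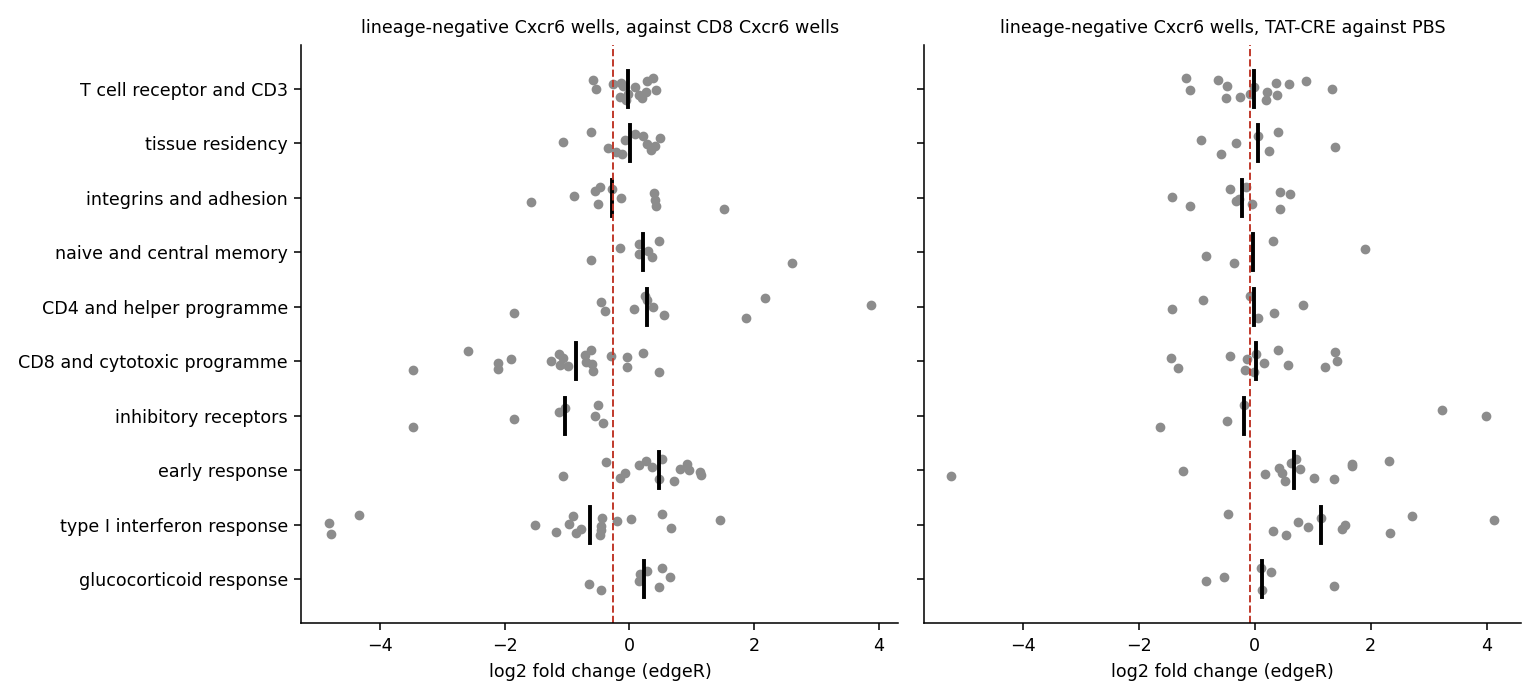
Log2 fold change of listed genes in the lineage-negative Cxcr6 wells (horizontal axes), against CD8 Cxcr6 wells on the left and TAT-CRE against PBS mice on the right. Grey points are genes, black bars list medians and the dashed line the median of all genes tested; the CD8 and cytotoxic list has its median at -0.85 on the left and the type I interferon list at 1.15 on the right, and no point passed the test.

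Whether the difference between TAT-CRE and PBS mice was the same in members as in CD8 Cxcr6 wells was tested directly as an interaction. No gene of 4967 was called (0.0%), 87 had an unadjusted p below 0.05, and DESeq2 called 0. Without mouse 208 the count was 3. The smallest p values included those of Slc25a4, Ablim1, Gorasp2 and Psme1 among genes whose TAT-CRE difference was larger in members, and those of Epsti1, Ufd1, Nop58, Matr3 and H2-T23 among those where it was smaller. Slc25a4, a mitochondrial ADP and ATP carrier, was the gene of these that was called without mouse 208 (edgeR adjusted p = 0.0326). For the interferon list, 11 of 18 tested genes had the larger difference in members, with a median of 0.60 against -0.04 for all genes.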

How the data were processed

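The deposited files hold raw UMI counts per gene row and well, made by the authors with bcl2fastq 2.15.0.4 and build mm10, per the submitters' processing notes; the aligner, annotation, strand and read filters were not given in the sources used here. Wells were taken from the authors' well annotation, and 1482 of 1900 wells with 1 cell were kept. Kept wells held 362457 to 839188 UMIs per mouse. No doublet caller was run, since wells were sorted with 1 cell. Members and gene lists were chosen with earlier results of these data known.

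UMIs were summed per class and mouse, leaving out the 92 ERCC rows and the 6 genes of the rule (the 5 lineage genes and Cxcr6). Genes with at least 20 UMIs and a UMI in at least 3 sums were fitted with edgeR 4.0.16 (TMM scaling, quasi-likelihood test, Benjamini-Hochberg adjustment over all genes tested, call below 0.05) in R 4.3.3, with the mouse as a block between classes. The same-mouse pairing comes from the labels, which give the mouse of each plate. The classes were not sorted apart: they were assigned to wells of the same plate from the UMIs of the rule genes. Classes of fewer than 3 wells in a mouse were left out. The test was checked on simulated counts. Every adjusted p in the text is from edgeR unless another tool is named. Alternatives included DESeq2 1.42.0, other scalings, filters, thinning and leaving out each mouse. Thinned shares are exact expectations at 400 UMIs a well. Sequences and positions are from GENCODE M21 (mm10), with 370 of 372 genes matched by symbol.

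Named genes were the 5 of smallest p in each direction where fewer than 5 were called, without ribosomal RNA rows, plus the given markers and list members. Some genes that this rule names are not reported here. Each mouse is 1 library, so animal and plate cannot be told apart. Intervals are Clopper-Pearson at 95%.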

Additional observations from a re-analysis of the deposited data

How the results depend on the processing

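Counts of called genes were small and moved with the processing. Against CD8 Cxcr6 wells the 1 call became 0 under DESeq2, DESeq2 size factors, thinning to 400 UMIs, removal of ribosomal RNA rows, 800 UMIs or more per well, no mitochondrial limit, 2 or more Cxcr6 UMIs, CD8 wells without CD4-lineage UMIs and library size alone, and 2 with no filter on low counts; leaving out single mice gave 0 to 2. Against CD4 Cxcr6 wells the 1 call became 0 with thinning and 2 without ribosomal RNA rows or with 2 or more Cxcr6 UMIs; leaving out single mice gave 0 to 1. Against lineage-negative wells without Cxcr6 the 3 calls became 0 under DESeq2 and library size alone, 1 with TMM over rows with 5 or more UMIs in every sum, 7 with thinning or without ribosomal RNA rows, 10 with no filter and 18 with 2 or more Cxcr6 UMIs; leaving out single mice gave 0 to 5. The 0 calls between TAT-CRE and PBS mice became 3 with no filter, and those of the interaction 0 to 3 over the mice left out. The cause was not tested. Library size alone and the restricted TMM were chosen after seeing the data.

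Without the replicate block, the mouse, 0 genes were called against CD8 Cxcr6 wells, 0 against CD4 Cxcr6 wells and 0 against lineage-negative wells without Cxcr6. No paired analysis was possible because TAT-CRE and PBS mice are different animals that share no replicate number.

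The difference in the share of Cxcr6 wells without a lineage UMI, -0.86 points, turned to 0.33 without the mitochondrial limit and ran from -5.21 to 2.84 over the mice left out. Against CD8 Cxcr6 wells, Itga4 turned to 0.66 (log2) with thinning and 0.038 with library size alone, and ran from -0.39 to 0.17 over the mice left out (0.037 without mouse 208). Rgs1 turned to 0.15 with thinning, 0.10 with library size alone and 0.015 with the restricted TMM, and ran from -0.60 to 0.28 (0.07 without mouse 207, 0.09 without mouse 215). Trbc1 ran from -0.25 to 0.63. Among the markers, Cd44 and the genes nearest to a call, the other differences kept their direction under the alternatives run, with 14 changes of side of the threshold; other genes with values in the text were not followed through the alternatives. The levels without the well richest in a list were added after seeing the data. Depth limits the class itself: at 400 UMIs 55.4% of CD8 Cxcr6 wells kept a lineage UMI.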

Other observations

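Several genes of the lineage-negative Cxcr6 wells rested on single cells. For Egr1, 37 of 48 UMIs came from 1 well, for Ifit3 13 of 26, for Il17a 8 of 15 and for Phf3 28 of 65. Inhibitory receptors, which restrain activated T cells, were lower in members than in CD8 Cxcr6 wells for 7 of 7 tested genes, none called (median log2 difference -1.03 against -0.26 for all genes). Their summed level was 1056 ± 551 CPM against 1419 ± 353 (SD, n = 5), with overlapping ranges and mouse 215 the 1 exception to the order.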
